A study of Mus musculus with 6 samples.

Results

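SUMO, the small ubiquitin-like modifier, is attached to lysines of other proteins by an enzyme cascade and taken off again by proteases, and the genes of this cycle were examined here in mouse cortex at postnatal day (P) 7. The 8 genes described are the modifiers Sumo2 and Sumo3, Sae1 and Uba2, which encode the subunits of the SUMO-activating enzyme (E1), and the SUMO proteases Senp1, Senp2, Senp3 and Senp6. They were chosen by gene symbol, and all 8 were found among the 24972 genes of the deposited table. Total RNA was extracted from dissected cortices, and RNA libraries made from it were sequenced, 3 per group, wildtype and Zmiz1-KO. Wildtype mice were Zmiz1f/f, and thus carried floxed alleles without Cre, and Zmiz1-KO mice were Zmiz1f/f;Emx1Cre, in which Cre acts in cortical progenitors of the excitatory lineage but not in interneurons that migrate in from elsewhere. One label note speaks of progenitor cells, whereas the RNA extraction notes and the study's methods describe P7 cortex. Whether each library is 1 animal is not stated, so p values measure the spread between these libraries.

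Newly made SUMO carries a short tail that SENP proteases cut off behind a pair of glycines. The heterodimer of SAE1 and UBA2 activates the matured modifier with ATP, a conjugating enzyme carries it to a lysine, and ligases such as the PIAS family speed the last step. SENP1 and SENP2 both mature SUMO and release it from substrates, SENP3 is a nucleolar protease that prefers SUMO2 and SUMO3, and SENP6 takes apart chains of SUMO2 and SUMO3. In neurons SUMO conjugation acts on transcription factors, nuclear transport and synaptic proteins. ZMIZ1, the product of the deleted gene, shares the zinc finger of the PIAS ligases, which is why its loss raises the question of whether transcripts of the SUMO cycle differ.

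No difference between the groups was detected in any of the 8 genes. Of the 8, 0 passed a limma adjusted p of 0.05 over the 15800 genes tested, against 0.411% of all tested genes, 0 passed with limma-voom, and 0 had an unadjusted p at or under 0.05, against 11.0% of all tested genes. Their log2 fold changes, libraries labelled Zmiz1-KO minus wildtype, ran from -0.10 for Senp1 to 0.08 for Sae1, with a median of -0.022 against -0.00018 over all tested genes. The 95% intervals of all 8 included 0, and their outermost limits were -0.24 (Senp1) and 0.17 (Sae1). All 8 genes passed the filter on low values, and their mean levels stood between the 49.3 percentile (Senp1) and the 93.1 percentile (Sumo2) of the tested genes.

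The sum of a library divided by its commonest value below 3 (1.83 to 2.11) came to between 15495006 and 17858811. These are numbers of counted reads only if that value stands for a single read, which was not tested. Zmiz1 itself stood at 8119, 7929 and 7461 normalized counts in wildtype, against 9944, 9779 and 9660 under the Zmiz1-KO label, replicates 1, 2 and 3 in that order here and for every gene below. The targeted gene was thus higher under the label of its deletion (log2 fold change 0.32, limma adjusted p = 0.00125), and since the table holds 1 value per gene, transcripts that lack the floxed exons could not be read separately. The groups are therefore named by their label, and every fold change would take the opposite sign if the labels were exchanged. One library of each group, wildtype replicate 3 and replicate 2 labelled Zmiz1-KO, had Xist values over 1000 and was female. Of 11 lists of 4 marker genes each, the summed levels of interneuron (10955 to 14651 in wildtype, 14994 to 16820 in the other group), striatal (4138 to 5707 and 6069 to 6506), meningeal (7376 to 8541 and 9618 to 10144), astrocyte (31847 to 34057 and 30139 to 31726) and oligodendrocyte lineage markers (10013 to 11128 and 9421 to 9835) did not overlap between the groups. Of single tested genes, 16.3% did not overlap. All 4 interneuron, striatal and meningeal markers had log2 fold changes above 0, but 1 of 4 astrocyte and 1 of 4 oligodendrocyte lineage markers went against their sum. The 4 excitatory neuron markers summed to 29489.5 to 33646 in wildtype and 29453 to 30941 in the other group, which overlapped. Of these 4, 0 had a log2 fold change above 0 (median -0.12), and 0 passed the limma adjusted p of 0.05. Among the 44 markers of all lists 2 passed it, 1 meningeal marker higher and 1 astrocyte marker lower, against 0.411% of all tested genes. No marker of any list was at 0 in all libraries. The part of these cell types in the values below was not tested, and in bulk cortex fewer cells of a type and less RNA per cell cannot be told apart.

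Sumo2 and Sumo3 are so alike in protein that they are often treated as a single modifier, so their coding sequences are given first, to show what separates their reads. Both are from GENCODE M21 transcripts on GRCm38, 5′ to 3′ from the start codon to the pair of glycine codons (ggaggt in Sumo2 and ggagga in Sumo3), with capitals for the bases that differ between them or have no partner. The tails, from there to the stop codon, are the part that SENP proteases cut off and carry no capitals.
Sumo2: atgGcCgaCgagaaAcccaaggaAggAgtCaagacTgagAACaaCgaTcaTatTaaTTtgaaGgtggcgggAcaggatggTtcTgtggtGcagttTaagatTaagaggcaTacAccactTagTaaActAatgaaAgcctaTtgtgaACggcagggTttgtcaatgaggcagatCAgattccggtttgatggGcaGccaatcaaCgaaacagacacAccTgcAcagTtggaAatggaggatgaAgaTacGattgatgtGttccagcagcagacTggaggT
Sumo3: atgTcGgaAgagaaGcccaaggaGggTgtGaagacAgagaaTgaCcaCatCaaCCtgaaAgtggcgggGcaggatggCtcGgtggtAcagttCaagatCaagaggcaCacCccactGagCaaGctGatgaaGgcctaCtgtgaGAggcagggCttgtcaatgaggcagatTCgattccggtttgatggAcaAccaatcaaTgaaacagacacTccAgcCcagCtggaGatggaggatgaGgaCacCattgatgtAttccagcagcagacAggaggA
Sumo2 tail: gtctactaa
Sumo3 tail: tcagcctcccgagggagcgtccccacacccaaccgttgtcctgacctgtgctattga

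Up to the glycine codons the coding sequences had 276 bases in common alignment, of which 228, or 82.6%, were identical, and Sumo2 had 1 codon more, of 3 bases. Of the 48 differing bases, 43 lay at the third position of a codon, 5 at the first and 0 at the second. The tail held 2 codons before the stop in Sumo2 and 18 in Sumo3. The longest identical run was 17 bases, and none of the 75-base stretches of Sumo2 transcripts occurred in Sumo3 transcripts, so reads of that length can tell the genes apart. Sumo2 was less distinct from its processed pseudogenes. Of its 1839 stretches, 291 (15.8%) also occurred in transcripts of other genes, chiefly the pseudogenes Gm10241 and Smt3h2-ps4, whose symbols are not among those of the table. For Sumo3 the share was 7.03%, all of it in the overlapping model Gm49325, and for the other members it was between 0% (Sae1) and 3.79% (Senp1). Most of the shared stretches of Senp1 lay in the antisense gene Gm26513, from which reads cannot be told apart when the strand is not kept.

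Sumo2, on chromosome 11 of GRCm38 from 115523102 to 115536276 on the minus strand, encodes the modifier most able to build chains. It had 6433, 6195 and 6447 normalized counts in wildtype, against 6379, 6596 and 6554 under the Zmiz1-KO label. The groups overlapped, since replicate 1 labelled Zmiz1-KO lay below 2 of the wildtype libraries. The means were 6358 ± 142 (SD, n = 3) and 6509.9 ± 115 (SD, n = 3), and the log2 fold change came to 0.034 (standard error 0.039, 95% interval -0.048 to 0.12, limma adjusted p = 0.816). Expressed as a change in level, that interval ran from 3.25% lower to 8.37% higher.

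Sumo3, on chromosome 10 from 77606097 to 77618331 on the plus strand, had 4202, 3914 and 3832 normalized counts in wildtype, against 4038, 3919.7 and 3978 under the Zmiz1-KO label. All values of the latter group fell inside the wildtype range. Its means were almost the same, 3982 ± 195 (SD, n = 3) and 3979 ± 59.3 (SD, n = 3), and the log2 fold change came to -0.00029 (standard error 0.045, 95% interval -0.095 to 0.094, limma adjusted p = 0.999). The interval in level was 6.36% lower to 6.75% higher.

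The modifiers were compared within each library, where scaling plays no part. Counts were not divided by length, and the longest coding transcript has 1051 bases for Sumo2 and 2630 for Sumo3. The ratio therefore serves to compare the groups and is not the balance of transcripts. The ratio of Sumo2 to Sumo3 normalized counts was 1.53, 1.58 and 1.68 in wildtype, against 1.58, 1.68 and 1.65 under the Zmiz1-KO label. The groups overlapped, with means of 1.60 ± 0.077 (SD, n = 3) and 1.64 ± 0.053 (SD, n = 3), and an exact two-sided permutation test of the log2 ratio gave p = 0.6 (0.6 after adjustment over the 2 ratios tested; the smallest p possible with 3 against 3 is 0.1).

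The E1 subunits are needed in equal parts for the active heterodimer. Sae1, on chromosome 7 from 16320234 to 16387806 on the minus strand, encodes the subunit that helps bind ATP. It had 3454, 3418 and 3522 normalized counts in wildtype, against 3676, 3570.1 and 3723 under the Zmiz1-KO label. All 3 values of the latter lay above the 3 wildtype values. The means of 3465 ± 52.5 (SD, n = 3) and 3656 ± 78.3 (SD, n = 3) gave a log2 fold change of 0.08 (standard error 0.042, 95% interval -0.011 to 0.17), which did not pass the test (limma adjusted p = 0.528; exact permutation p = 0.1). In level, the interval ran from 0.767% lower to 12.2% higher.

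Uba2, on chromosome 7 from 34140688 to 34169599 on the minus strand, encodes the subunit with the catalytic cysteine. Its normalized counts were 2536, 2626 and 2785 in wildtype, against 2739, 2709 and 2474 under the Zmiz1-KO label. The groups overlapped throughout, and the lowest and the highest value were replicate 3 of either group. The means were 2649 ± 126 and 2641 ± 145 (SD, n = 3 per group), with -0.0049 as the log2 fold change (standard error 0.052, 95% interval -0.12 to 0.11, limma adjusted p = 0.988).

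The ratio of Sae1 to Uba2 normalized counts was 1.36, 1.30 and 1.26 in wildtype, against 1.34, 1.32 and 1.50 under the Zmiz1-KO label, with the highest value in replicate 3 of the latter. Here too counts were not divided by length (1875 bases for Sae1 and 2579 for Uba2), so it is not the balance of subunit transcripts. Means were 1.31 ± 0.049 (SD, n = 3) and 1.39 ± 0.10 (SD, n = 3), and the exact two-sided permutation test gave p = 0.4 (0.6 after adjustment over the 2 ratios). Without replicate 3 labelled Zmiz1-KO the difference of the log2 ratio was 0.023, against 0.08 with all libraries.

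**Figure D1:**
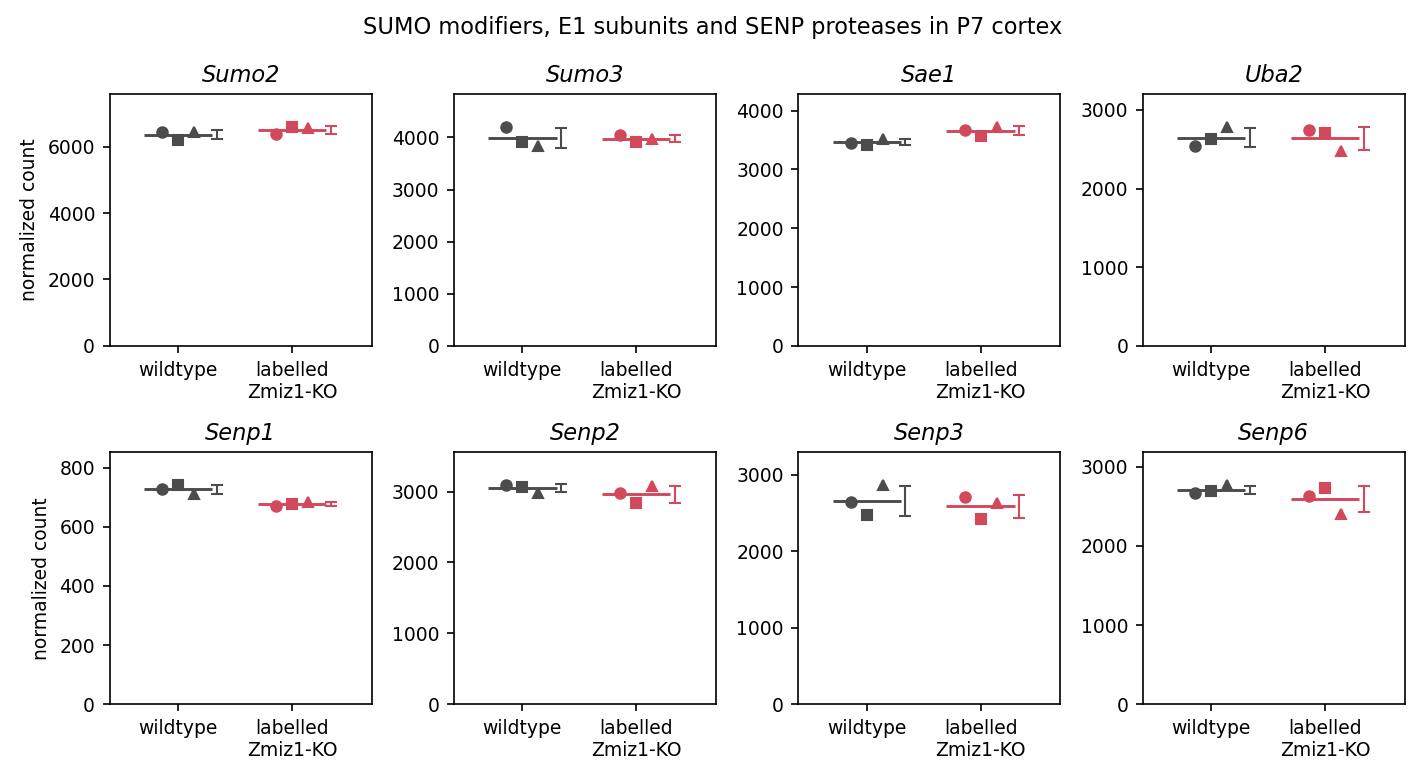
Normalized counts of the 8 SUMO genes in each library (y axis, from 0), by group (x axis), with circles, squares and triangles for replicates 1, 2 and 3, horizontal lines for group means and bars for the SD beside them. The groups overlap in 6 genes, whereas in Sae1 the libraries labelled Zmiz1-KO lie above 3522 and in Senp1 they lie below 711.

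The log2 fold changes of the 4 protease genes were all below 0, from -0.10 to -0.040 with a median of -0.053, and 0 of the 4 passed the limma adjusted p of 0.05. Senp1, on chromosome 15 from 98038744 to 98093744 on the minus strand, was the member with the steepest change. It had 728, 741 and 711 normalized counts in wildtype, against 672, 677 and 685 under the Zmiz1-KO label, all 3 below the wildtype values. Spread was small, with means of 727 ± 14.8 (SD, n = 3) and 678 ± 6.90 (SD, n = 3). Of the 501 tested genes nearest in level, itself included, 0.998% had a within-group spread no larger, and limma moderates such a spread towards that of other genes. The log2 fold change came to -0.10 (standard error 0.068, 95% interval -0.24 to 0.044, limma adjusted p = 0.639; exact permutation p = 0.1), and in level the interval ran from 15.6% lower to 3.10% higher.

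Senp2, on chromosome 16 from 22009484 to 22049269 on the plus strand, encodes a protease found at the nuclear pore. Its normalized counts were 3092, 3064 and 2985 in wildtype, against 2978, 2835 and 3077 under the Zmiz1-KO label. Replicate 3 of the latter lay above 2 wildtype libraries, so the groups overlapped. The log2 fold change came to -0.041 (standard error 0.046, 95% interval -0.14 to 0.056, limma adjusted p = 0.813). It was -0.0093 without replicate 2 labelled Zmiz1-KO and -0.068 without replicate 3 labelled Zmiz1-KO.

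Senp3, on chromosome 11 from 69673115 to 69682084 on the minus strand, acts with ribosome assembly factors in the nucleolus. It had 2639, 2473 and 2862 normalized counts in wildtype, against 2711, 2419 and 2622 under the Zmiz1-KO label. The wildtype libraries alone spread over 7.36% of their mean (coefficient of variation, n = 3), the widest spread among the members, and the groups overlapped. The log2 fold change came to -0.040 (standard error 0.058, 95% interval -0.16 to 0.083, limma adjusted p = 0.868). With the female library of each group left out, it was 0.062.

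Senp6, on chromosome 9 from 80066903 to 80144953 on the plus strand, had 2671, 2695 and 2769.9 normalized counts in wildtype, against 2634, 2737 and 2411 under the Zmiz1-KO label. Replicate 1 of the latter lay slightly below all wildtype values. The low mean of that group, 2594 ± 167 against 2712 ± 51.6 (SD, n = 3 per group), came mostly with replicate 3, in which Uba2 was lowest too. The log2 fold change came to -0.066 (standard error 0.051, 95% interval -0.17 to 0.042, limma adjusted p = 0.689), and without that library it was -0.014.

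Sae1 and Senp1 were thus the 2 of 8 members whose groups did not overlap, 1 with the libraries labelled Zmiz1-KO higher and 1 with them lower, against 16.3% of all tested genes (8.10% higher, 8.16% lower). Summed over all 8 members, the normalized counts were 25755, 25126 and 25914 in wildtype, against 25825, 25463 and 25525 under the Zmiz1-KO label, which overlapped. The summed SENP counts also overlapped, at 9129, 8973 and 9329 against 8993, 8668 and 8796.

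Levels were compared between genes per kilobase of the longest coding transcript. Sumo2 stood highest, with a mean of 6122 normalized counts per kb over the 6 libraries (5894 to 6276). Sae1 followed at 1899 (1823 to 1986), Sumo3 at 1514 (1457 to 1598), Senp3 at 1133 (1046 to 1238), Uba2 at 1025.5 (959 to 1080), Senp2 at 668 (630 to 687), Senp6 at 519 (472 to 542) and Senp1 at 107 (102 to 113). Only the neighbours Senp3 and Uba2 overlapped over the libraries. The mean level of Sumo2 per kb was 3.22 times that of Sae1 and 57.3 times that of Senp1. When the union of all exons was taken as the length, the order was kept, but the neighbours that overlapped were then Uba2 and Senp2 (438 and 435 per kb).

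**Figure D2:**
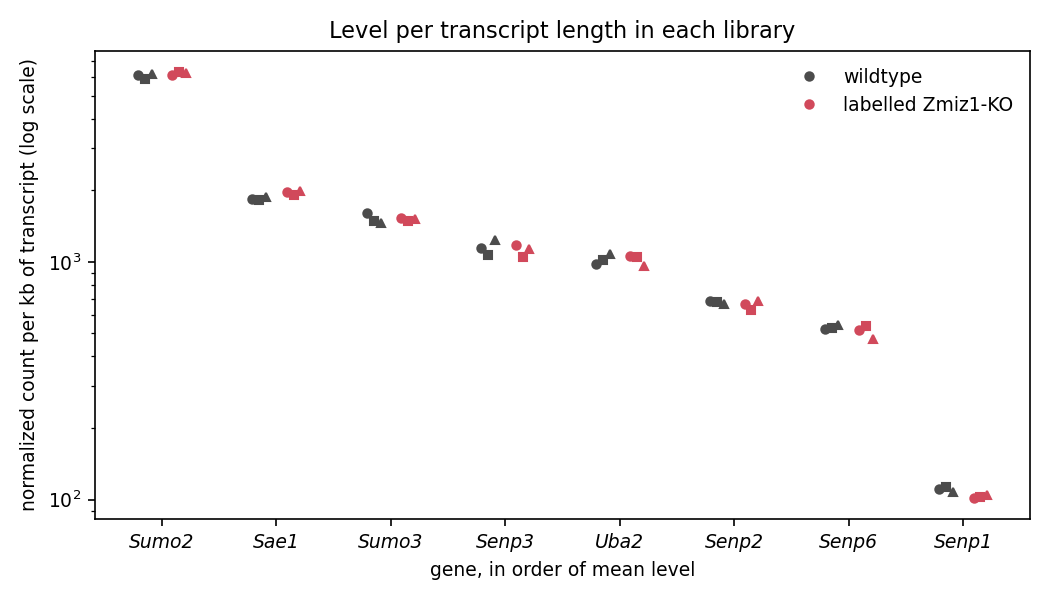
Normalized counts per kilobase of the longest coding transcript (y axis, log scale) for the 8 SUMO genes in order of mean level (x axis), with 1 point per library, wildtype in grey and libraries labelled Zmiz1-KO in red. Sumo2 lies at 5894 to 6276 per kb and Senp1 at 102 to 113, and for each gene the groups lie close together.

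The rest of the pathway was read from a list of 27 other SUMO genes, all of them tested. Of these, 1 passed the limma adjusted p of 0.05, the targeted gene Zmiz1, with 1 higher and 0 lower, against a background of 0.165% higher and 0.247% lower. At an unadjusted p at or under 0.05 there were 6 of 27, with 2 higher and 4 lower (5.13% and 5.84% of all tested genes), and 6 of 27, 2 higher and 4 lower, had groups without overlap (16.3% of all tested genes, 8.10% higher and 8.16% lower). The targeted gene Zmiz1 is 1 of the 2 higher genes in each of these counts. The median log2 fold change of the list was 0.0057.

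The remaining SENP genes of the SUMO pathway, Senp5 and Senp7, also had log2 fold changes below 0. For Senp5, a nucleolar protease like Senp3, it was -0.063 (limma adjusted p = 0.677). Senp7, whose product cuts SUMO2 and SUMO3 chains as SENP6 does, had 1237, 1203 and 1229 normalized counts in wildtype, against 1060 (replicate 1), 1172 and 1071 under the Zmiz1-KO label, all lower. Its log2 fold change of -0.15 (standard error 0.060) did not pass over all tested genes (limma adjusted p = 0.348). With them, 6 of 6 SENP genes that act on SUMO had values below 0 (49.9% of all tested genes lay above 0), with a median of -0.065, and 0 of the 6 passed. Senp3 is the exception among the alternatives, since it turned positive in 3 of 17. The SUMO proteases of other families had log2 fold changes of 0.056 for Uspl1, 0.046 for Desi1 and -0.0072 for Desi2. They did not pass either (limma adjusted p = 0.726, 0.781 and 0.981), and a difference between the protease families was not tested.

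Zfp451, Rnf111, Ranbp2 and Trim28 are named because of their values (unadjusted p at or under 0.05), outside the rule for named genes. Zfp451, a ligase that extends SUMO2 and SUMO3 chains, had 931, 951 and 956 normalized counts in wildtype, against 737, 847 and 725 under the Zmiz1-KO label, without overlap. Its log2 fold change came to -0.30 (standard error 0.072, with a limma adjusted p of 0.0976), which passed at an adjusted p of 0.1 (0.671% of all tested genes) and not at 0.05. Without replicate 2 labelled Zmiz1-KO the limma adjusted p was 0.0181, and with any other library left out it was between 0.152 and 0.444, past neither threshold. It was 0.120 under upper-quartile scaling, 0.107 without a filter and 0.195 without a robust prior. Rnf111, a ubiquitin ligase that binds SUMO chains, differed by -0.20 on the log2 scale (limma adjusted p = 0.168), and Ranbp2, the ligase of the nuclear pore, by -0.17 (limma adjusted p = 0.289). Trim28, a co-repressor with SUMO ligase activity, lay in the other direction, at 0.098 on the log2 scale (limma adjusted p = 0.429). The NEDD8 pathway, which attaches another ubiquitin-like protein through an analogous E1, was taken for comparison. Of its 14 genes, all tested, 0 passed with limma (0.411% of all tested genes) and 1 had an unadjusted p at or under 0.05 (11.0% of all tested genes), a share near the background. The median log2 fold change was 0.0075.

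**Figure D3:**
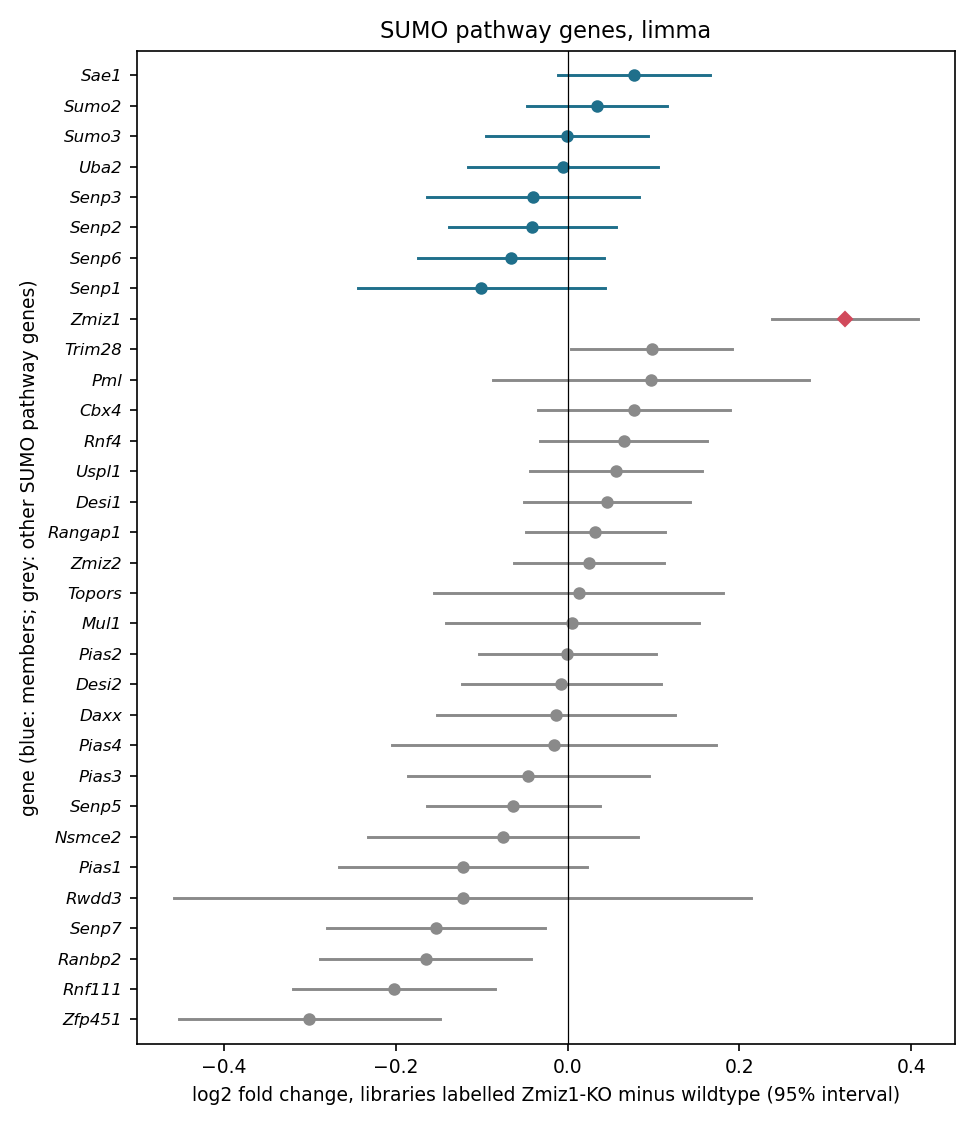
Log2 fold changes, libraries labelled Zmiz1-KO minus wildtype, with 95% intervals from limma (x axis) for the 8 members (blue) and the other SUMO pathway genes (grey) in order of their value (y axis). Sp100, with values of at most 43.8, is left out for its wide interval, and not every gene of the list is drawn. All 8 blue intervals include 0, and Zmiz1 (red diamond) at 0.32 is the gene past the adjusted p of 0.05.

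**Figure D4:**
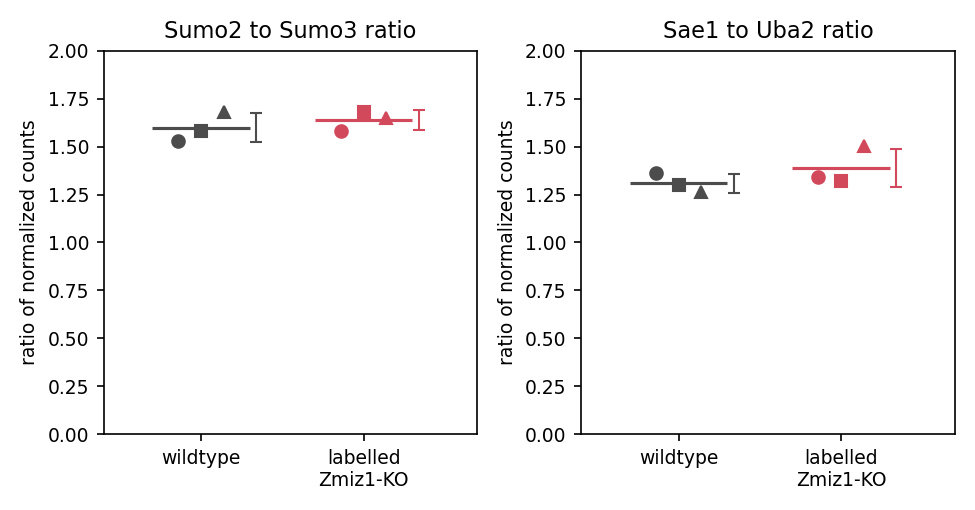
Ratios of normalized counts of Sumo2 to Sumo3 and of Sae1 to Uba2 (y axes, from 0) in each library by group (x axis), with circles, squares and triangles for replicates 1, 2 and 3, lines for means and bars for the SD. The groups overlap in both ratios, and the highest Sae1 to Uba2 ratio, 1.50, is that of replicate 3 labelled Zmiz1-KO.

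Promoter windows of 300 bases, from RefSeq on GRCm38.p6, matched 7 of the 8 members, all but Sae1, with 11 windows in all. They were mostly rich in CpG, with a median of 29 CpG per window against 7 over the 32851 windows of all genes. The exception was a Sumo3 window, on chromosome 10 from 77613459, with 2 CpG. The GC box GGGCGG, on either strand, was present in 7 of the 11 windows, against 35.7% of all windows. By gene it was present in 6 of the 7, some of which have several windows, and no share by gene was computed for comparison. The windows of all genes were not restricted to tested genes, whereas all members were tested. TATAAA was found in 0 of 11 windows (13.6% of all), CCAAT in 2 of 11, in Sumo2 and Senp3 (37.4% of all), and the ETS motif CCGGAAG in 2 of 11, in Senp1 and Uba2 (8.86% of all). Windows of a gene overlap in part, as those of Senp1 and of Senp3 do. Over the 6 libraries, the tested gene with the highest Pearson r to a member, on the log2 scale, was Cyp1b1 for Sumo2, Rimbp2 for Sumo3, Rnf187 for Sae1, Robo4 for Uba2, Mapk9 for Senp1, Arhgef10 for Senp2, C430049B03Rik for Senp3 and Nlrp1a for Senp6. These r values, from 0.987 to 0.995, are the highest over all tested genes and rest on 6 points, and between 12 and 62 genes per member exceeded 0.95.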

How the data were processed

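RNA of P7 cortex was sequenced in 3 wildtype libraries and 3 labelled Zmiz1-KO. The authors used STAR for alignment to mouse mm10 and DESeq2 to normalize counts per gene, both on Illumina BaseSpace, and the deposited table holds these normalized signal values, called normalized counts here. Tool versions, gene annotation and the counting step are not given in the sources used here. The values of a library are not all multiples of a single step, so reads per gene could not be recovered and no count model was used. In wildtype replicate 2, for example, the commonest value below 3 was 2.11, and Sp100 stood at 4.93.

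The 15800 of 24972 genes that reached 10 in 3 or more libraries were tested on log2(value + 1) by limma 3.58.1 in R 4.3.3, using an intensity trend, a robust prior and no covariate. Two-sided p values received a Benjamini-Hochberg adjustment across every tested gene. Fold changes are on that log2 scale. The procedure was tested on simulated data. Ratios within a library were compared by exact permutation tests. Gene models, lengths and shared 75-base stretches came from GENCODE M21 (GRCm38, the same assembly as mm10), read in both directions, and alignments were made with Biopython (version 1.88). The members, the pathway lists and the named genes (members, Zmiz1, Senp5, Senp7, list genes past the threshold, and the gene most like each member) were chosen with earlier results of these data known. Some genes of the pathway list are counted in it but not reported singly here. Alternatives were limma-voom, 2 other scalings, 2 other pseudocounts, 2 other filters, an adjusted p of 0.1, no robust prior, a replicate block, each library left out, and males alone.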

Additional observations from a re-analysis of the deposited data

How the results depend on the processing

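Of the 8 members, 0 passed under each of the 17 alternatives, with limma adjusted p values from 0.335 to 1.00 and log2 fold changes from -0.12 to 0.11. Sumo2, Sae1, Senp1, Senp2 and Senp6 kept their direction under all of them. Sumo3, Uba2 and Senp3, which lie near 0, changed sign. Under upper-quartile scaling Sumo3 was 0.0058 and Uba2 0.0012, and with males alone Uba2 was 0.013 and Senp3 0.062. With each library left out in turn, Sumo3 ran from -0.028 to 0.039, Uba2 from -0.036 to 0.041 and Senp3 from -0.091 to 0.015. The ratio of Sumo2 to Sumo3 (0.0037 to 0.072 on the log2 scale) and that of Sae1 to Uba2 (0.023 to 0.12) kept their direction with each library left out.

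Of the other SUMO genes, 1 passed, and 2 did at an adjusted p of 0.1, under the replicate block and with males alone, Zfp451 being added each time, and 1 to 3 did with a library left out (3 without replicate 2 labelled Zmiz1-KO). Of the NEDD8 genes 0 passed throughout. The count over all tested genes was 65. It was 106 at an adjusted p of 0.1, 17 without a robust prior, 168 with the replicate block, 153 with males alone, and 12 (without replicate 3 labelled Zmiz1-KO) to 152 (without replicate 2 labelled Zmiz1-KO) with a library left out, 17 without replicate 1 labelled Zmiz1-KO and 30 without wildtype replicate 1. The cause was not tested. Over all tested genes, libraries with the same number did not deviate alike from their group means (r from -0.11 to -0.0051). Such r values cannot show whether a pairing affects only some of the genes.

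The members' unadjusted 95% intervals reached from 15.6% lower to 12.2% higher at the widest. The smallest change detectable with 3 libraries per group was not measured. The values are per gene, so isoforms, protein levels and SUMO conjugates were not measured.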
